A study of Mus musculus with 3 samples.

Results

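The cells described here are the general capillary endothelial cells of irradiated mouse lung, chosen by measured values in single-cell RNA sequencing tables. A cell was selected on 2 or more of the 5 endothelial genes Pecam1, Cdh5, Cldn5, Egfl7 and Clec14a above 0, on Ptprc, Epcam and Col1a1 at 0, on Gpihbp1 above 0, and on Car4 and Ednrb not both above 0. This rule found 665 cells among 19622, of which 226 of 6372 came from the CONV library, 204 of 6983 from CONV AsiDNA and 235 of 6267 from FLASH. Each library came from the lung of 1 wild-type female C57BL6/J mouse, collected 5 months after 13 Gy to the thorax. CONV stands for irradiation at a conventional dose rate and FLASH for irradiation at an ultra-high dose rate. The CONV AsiDNA mouse also received AsiDNA, a short double-stranded DNA molecule that mimics a double-strand break, at 100 mg/kg on 2 days and at 200 mg/kg on the third day, when CONV irradiation was given. All 3 mice were irradiated, and control mice are not analysed here. Because there was a single mouse for each condition, the effect of a treatment cannot be told apart from the difference between mice or between library preparations, so no test between conditions is given.

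The alveolar wall of the lung is lined by a pair of capillary cell types. General capillary cells carry Gpihbp1, the protein that brings lipoprotein lipase to the capillary lumen, together with Plvap, which forms the diaphragms of caveolae and fenestrae, and they are known as the progenitors that renew the capillary bed after injury. Aerocytes carry Car4 and Ednrb, and lie against the thin gas-exchange surface. Both are among the cells that radiation damages in the lung.

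Values are given in the order CONV, CONV AsiDNA, FLASH unless a sentence says otherwise. Each value in the deposited tables converts back to a whole number, called an adjusted count here, and a level is given as adjusted CPM, the adjusted counts of a gene per 1000000 of the class. The members held a median of 3820, 3902 and 3859 adjusted counts and of 1788, 1932 and 1875 genes per cell. Their summed adjusted counts were 826007, 763165 and 870757. These totals were alike in the 3 libraries, but since the values were adjusted before deposit they are not a measure of sequencing depth, which is unknown here. None of the members had fewer than 2125 adjusted counts. The mitochondrial share differed, with medians of 0.103%, 0.721% and 0.897%, as did the share of ribosomal protein genes, with 5.68%, 2.30% and 2.58%. With these genes and the ribosomal RNA genes Gm42418 and AY036118 left out of the totals, which changes the scaling only, CONV was above both others in 189 genes and below in 146, among them all 167 and 146 of the 158 genes counted with full totals. Exact 95% Clopper-Pearson intervals are given for shares of cells and cover the sampling of cells only. No cell barcode was shared among the members of different libraries.

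The rule set a sharp limit. Gpihbp1, at chr15:75596628-75599481 on GRCm38, was above 0 in 256, 235 and 265 cells of the whole tables, and only 2 of these cells, both in CONV AsiDNA, were neither members nor in the aerocyte gate. Just inside the threshold, 37, 48 and 37 members had a single adjusted count of Gpihbp1, while the median was 5, 4 and 5 and the highest 24, 28 and 23. Just outside it, 118, 221 and 219 endothelial-gated cells had Gpihbp1 at 0. A further 30, 29 and 30 cells had Gpihbp1 but fell in the aerocyte gate, and 47, 44 and 76 members had Car4 alone of that pair while 18, 6 and 19 had Ednrb alone. Of the 5 endothelial genes, 5, 1 and 2 members had exactly 2 and 120, 159 and 183 members had all.

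Known genes of general capillary cells were present. Plvap was above 0 in 65.9%, 89.2% and 90.2% of the members, against 0%, 1.25% and 1.19% of the aerocyte cells. Cd93 was found in 92.0%, 96.1% and 90.6% and Ptprb, a phosphatase of endothelial cells, in 91.6%, 95.6% and 95.3%. Kit, a receptor of general capillary cells, was above 0 in fewer members, 27.4%, 48.0% and 41.7%, and the apelin receptor Aplnr in 22.1%, 15.2% and 8.09%. The defining genes of alveolar type 2, airway, red blood and platelet cells were at or near 0, with no member holding 3 or more markers of any of these, while 15, 14 and 12 members held 3 or more markers of alveolar type 1 cells. Of Sftpc, Lyz2, Cd79a, Cd3e, Col3a1, Acta2, Pf4 and Hbb-bs, at least 1 was above 0 in 4, 1 and 3 members. The 10 granulocyte markers summed to 13.3, 3396 and 0 adjusted CPM, led in CONV AsiDNA by S100a8 and S100a9, of which 1 member held 47.6% and 46.1%, and their part in the results was not tested.

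The rule also took in cells of other vessels. Members with 3 or more of 10 lymphatic markers numbered 9, 15 and 22, or 3.98% (1.84 to 7.42%), 7.35% (4.17 to 11.8%) and 9.36% (5.96 to 13.8%). In them Ccl21a, a chemokine of lymphatic vessels, stood at 12979, 14082 and 24559 adjusted CPM, and Prox1, the transcription factor that sets lymphatic identity, was above 0 in 77.8%, 46.7% and 81.8%. Lyve1 is 1 of the 10 markers, and on the other 9 the members with 3 or more numbered 7, 8 and 18, or 3.10% (1.25 to 6.28%), 3.92% (1.71 to 7.58%) and 7.66% (4.60 to 11.8%). In the members outside the lymphatic-marker group Prox1 was above 0 in 0.461%, 0% and 0% and Ccl21a in 0%, 0.529% and 0%. A second group was larger, since 117, 138 and 164 members held 3 or more of 16 vein markers, and Vwf, the von Willebrand factor gene of larger vessels, was above 0 in 42.0%, 55.9% and 62.6%. At least 3 general capillary markers were held by 221, 199 and 227 members, but at least 3 aerocyte markers by 201, 179 and 203 and at least 3 artery markers by 220, 197 and 217, so these counts do not set the members apart from other capillary and arterial cells. The lymphatic-marker cells go against the label. Genes that lost a call without these cells are named.

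The members made up 3.55% (3.11 to 4.03%), 2.92% (2.54 to 3.34%) and 3.75% (3.29 to 4.25%) of all cells. Among endothelial-gated cells they made up 60.4% (55.3 to 65.4%), 44.9% (40.3 to 49.6%) and 48.6% (44.0 to 53.1%). The share in CONV was above the intervals of both other libraries, whose own intervals overlapped. In CONV the aerocyte gate held the smaller share, 14.4% (11 to 18.4%) against 35.2% (30.8 to 39.8%) and 34.7% (30.5 to 39.1%), with 54, 160 and 168 cells. Shares of endothelial-gated cells depend on one another, and the yield of each type from the digested tissue was not measured, so the shares do not give numbers of cells in the lung. Of all cells, the aerocyte gate held 0.847% (0.637 to 1.10%), 2.29% (1.95 to 2.67%) and 2.68% (2.29 to 3.11%), with the CONV interval below both others, while the intervals of the members overlapped between CONV and each other library. Leaving out members with Car4 or Ednrb gave 43.1%, 33.9% and 28.9%, so that the order of CONV AsiDNA and FLASH turned while CONV stayed first.

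**Figure D1:**
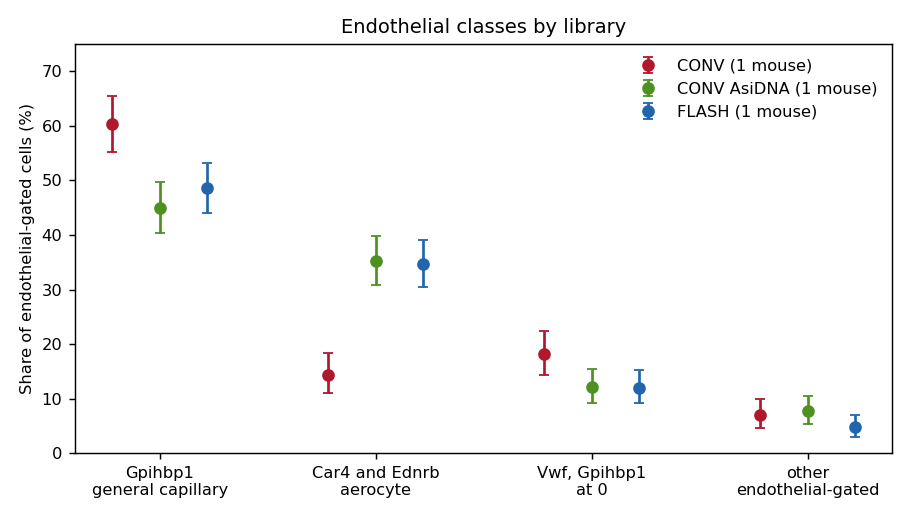
Share of each endothelial class (%) among the endothelial-gated cells of each library, with exact 95% Clopper-Pearson intervals as bars and 1 mouse per library. The Gpihbp1 general capillary cells lie at 60.4% in CONV and at 44.9% and 48.6% in CONV AsiDNA and FLASH, while the aerocyte cells lie at 14.4% in CONV and at 35.2% and 34.7% in the others.

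The CONV members stood farther from the others than either of the others did. Over 6778 genes with at least 50 summed adjusted counts in the members, CONV was at least 2-fold above both other libraries in 167 genes (2.46%) and at least 2-fold below both in 158 genes (2.33%), on adjusted CPM plus 10, a scale that understates the change of low genes. CONV AsiDNA was above both in 10 genes (0.148%) and below both in 21 (0.31%), and FLASH above both in 21 (0.31%) and below both in 56 (0.826%). The median log2 ratio over all genes was −0.08 for CONV over CONV AsiDNA, −0.06 for CONV over FLASH and 0.01 for CONV AsiDNA over FLASH. These are counts past a fixed fold between single mice and not counts of genes that passed a test, and a gene past that fold is called above or below here. Over the listed and named genes there were 140 such calls. Of these, 116 held when, for each gene, the 1 member with the most of it was left out of any library. Of the genes named here, Acta2, Fbln2, Fn1, Gdf15, Ifi27l2a, Ndrg1, Plau, Selp and Stmn1 then lost a call in CONV, Fn1, Hmgcs1 and Lrg1 in CONV AsiDNA, and Fabp4, Abca1 and Rsad2 in FLASH. Without the lymphatic-marker members 128 of the 140 held, and of the genes named here Sox17, Gdf15 and Plau lost a call in CONV, Hmgcs1, Fos and Ednrb in CONV AsiDNA, and Col18a1, Prox1 and Ccl21a in FLASH.

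**Figure D2:**
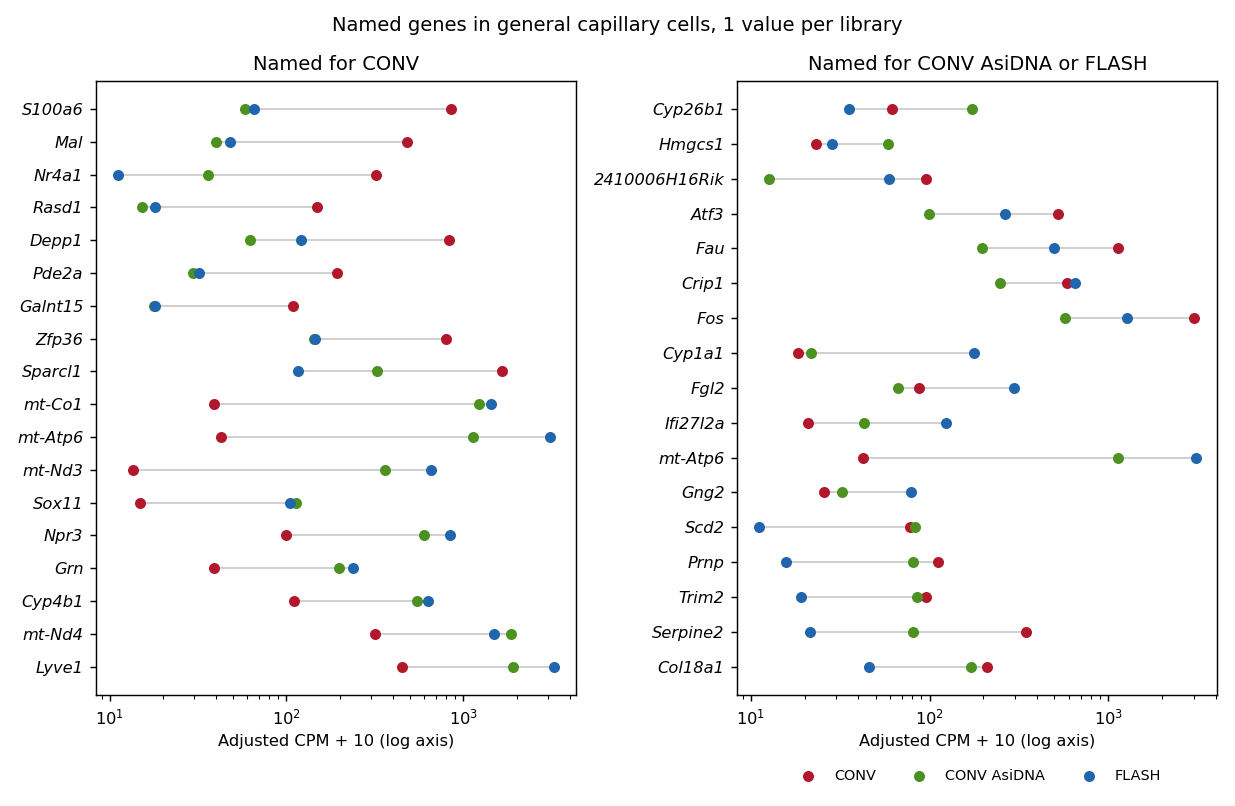
Adjusted CPM plus 10 (log axis) in the general capillary cells of each library, 1 point per library, for genes named for CONV (left) and for CONV AsiDNA or FLASH (right). On the left, the CONV AsiDNA and FLASH points lie together for most genes and the CONV point apart, as for S100a6 at 843 against 48.5 and 55.1 adjusted CPM.

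Among genes above 0 in all 3 libraries and in 10% or more of the members of 1, that farthest above in CONV was S100a6, a small calcium-binding protein, at 843, 48.5 and 55.1 adjusted CPM. It was above 0 in 42.5% (35.9 to 49.2%), 3.43% (1.39 to 6.94%) and 6.38% (3.62 to 10.3%) of members. Sparcl1, the secreted matricellular protein hevin at chr5:104079111-104113733, stood at 1640.4, 314 and 106 adjusted CPM and was above 0 in 82.7% (77.2 to 87.4%), 23% (17.4 to 29.4%) and 12.8% (8.78 to 17.7%) of the members. For both genes the CONV interval lay above those of the other libraries. Thinned to 1000 adjusted counts a cell, the Sparcl1 shares were 64.8%, 15.7% and 7.26%, and in aerocyte cells, unthinned, they were 51.9%, 0% and 0%. Depp1, a gene induced by FoxO factors and by low oxygen, stood at 817, 52.4 and 111 adjusted CPM, with 53.5%, 5.39% and 7.23% of members above 0. Mal, a membrane raft protein, stood at 469, 30.1 and 37.9. Rasd1, a Ras-related protein induced by glucocorticoids, stood at 138, 5.24 and 8.04, Pde2a, a phosphodiesterase of cyclic nucleotides, at 184, 19.7 and 21.8, and Galnt15, an enzyme of O-glycosylation, at 99.3, 7.86 and 8.04. In each of these the CONV level was more than 4 times that of both other libraries.

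Immediate early genes, which cells switch on within minutes of a stimulus, were high in CONV members. Of 24 compared genes of the list, CONV was called above both others in 10 and below in 0, against 2.46% and 2.33% of all genes, and 22 were highest in CONV, as were 32.2% of all genes compared. The median log2 ratio was 1.68 against CONV AsiDNA and 1.12 against FLASH. Fos, a subunit of the AP-1 transcription factor, stood at 3000, 561 and 1259.8 adjusted CPM in 44.2%, 14.2% and 21.3% of the members, and Egr1, a zinc-finger transcription factor, at 1093, 216 and 386 in 38.5%, 13.2% and 21.7%. Both were lowest in CONV AsiDNA, with FLASH between. In the members with neither Vwf nor 3 lymphatic markers, Fos stood at 3162, 269 and 150.3 and Egr1 at 1049.5, 118 and 44.7, so that CONV stayed highest while FLASH was lowest, and the order of the other libraries rests on the Vwf and lymphatic-marker members. In members with Kit, CONV was within 2-fold of FLASH for Fos, at 772, 132 and 510, and for Junb, at 384, 225 and 300. There Ier3, at 726, 178 and 289, and Zfp36, at 201, 32.9 and 38.6, stayed more than 2-fold above both others in CONV. Over all members Junb stood at 1477, 358 and 541, Ier3 at 1091, 300.1 and 346 and Dusp1, a phosphatase that switches off MAP kinases, at 1099, 342 and 690.2. Another order was found for Nr4a1, an orphan nuclear receptor, at 312, 26.2 and 1.15, and for Fosl2 at 155, 40.6 and 18.4, where FLASH was lowest. Zfp36, which binds and destabilises messenger RNA, was within 2-fold between the other libraries at 784, 134 and 134, while Atf4, at 223, 238 and 224, and Maff, at 105, 61.6 and 111, were not above the others in CONV.

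Genes of glycolysis and of the response to low oxygen were a further group. Of 18 compared, 6 were called above in CONV and 0 below, where 2.46% and 2.33% of all genes were, 14 were highest there, as were 32.2% of all genes, and the median log2 ratio was 0.70 against CONV AsiDNA and 0.52 against FLASH. Bnip3, a mitochondrial protein of mitophagy and a known target of hypoxia-inducible factor, stood at 199.8, 31.4 and 24.1 adjusted CPM in 34.1%, 9.80% and 6.81% of members. Ankrd37, a further known target, stood at 234, 53.7 and 28.7 in 33.6%, 11.3% and 5.11%. The other 4 called genes were Hif1a, the oxygen-regulated subunit itself, at 232, 105 and 88.4, Ldha, lactate dehydrogenase, at 292, 117 and 113, Aldoa, aldolase, at 490.3, 229 and 181, and Ndrg1 at 419, 142 and 202. Not all genes of the list shared this order. Vegfa, the vascular growth factor, was lowest in CONV at 291, 586 and 447, as was Pgam1 at 67.8, 122 and 102.

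The promoters of these genes are shown because the letters bound by hypoxia-inducible factor are known. For this list and the immediate early list, 4 motifs were searched on both strands in the 250 bases before each start of the RefSeq promoters of GRCm38.p6, namely the cores ACGTG and GCGTG, the letters TGACGT and the CArG box. ACGTG was found in 16.6% of all 32851 promoters. Of the 18 compared genes of the list, 17 had a promoter in that table and 11 of these held the core, among them all 5 of the called genes with an entry. For each motif the lists are counted by gene and the background by single promoter. Some genes have more than 1 promoter, as Ldha with 2 and Aldoa with 3, so these shares are in unlike units. The core overlaps the letters CACGTG, which read the same on both strands and so count as 2 matches. Of the immediate early genes 4 of 20 with a promoter held it, and 1 of 7 called ones. The core GCGTG, the other form of this element, was found in 28.2% of all promoters, in 12 of the 17 genes, in 3 of the 5 called ones, in 10 of the 20 immediate early genes and in 5 of the 7 called ones. The CArG box of serum response factor was found in 1.47% of all promoters, in 0 of the 17 genes and in 1 of the 20, which was Zfp36. A match describes the letters and is neither a bound site nor a cause. The promoters of Bnip3, Ankrd37, Ldha and Hif1a are printed 5′ to 3′ on the strand of the gene, with the ACGTG matches on either strand in capitals and all other letters, matches of the other motifs included, in lower case, and that of Ldha is 1 of its 2 promoters in the table.
Bnip3, chr7:138909507-138909756, minus strand: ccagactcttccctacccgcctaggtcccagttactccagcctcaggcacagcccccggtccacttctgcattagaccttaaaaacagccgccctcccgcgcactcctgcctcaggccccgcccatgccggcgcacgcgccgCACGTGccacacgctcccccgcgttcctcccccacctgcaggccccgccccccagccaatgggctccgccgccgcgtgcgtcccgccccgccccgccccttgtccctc
Ankrd37, chr8:45999851-46000100, minus strand: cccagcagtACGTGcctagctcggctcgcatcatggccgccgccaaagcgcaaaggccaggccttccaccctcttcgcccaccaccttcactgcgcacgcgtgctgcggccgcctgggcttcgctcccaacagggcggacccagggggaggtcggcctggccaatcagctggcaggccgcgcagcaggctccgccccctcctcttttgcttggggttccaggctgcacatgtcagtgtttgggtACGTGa
Ldha, chr7:46845554-46845803, plus strand: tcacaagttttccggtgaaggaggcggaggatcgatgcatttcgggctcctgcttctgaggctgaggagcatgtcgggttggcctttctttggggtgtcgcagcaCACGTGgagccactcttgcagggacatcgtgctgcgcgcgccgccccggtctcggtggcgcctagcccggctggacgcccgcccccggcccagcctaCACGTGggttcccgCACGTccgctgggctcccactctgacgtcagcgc
Hif1a, chr12:73907617-73907866, plus strand: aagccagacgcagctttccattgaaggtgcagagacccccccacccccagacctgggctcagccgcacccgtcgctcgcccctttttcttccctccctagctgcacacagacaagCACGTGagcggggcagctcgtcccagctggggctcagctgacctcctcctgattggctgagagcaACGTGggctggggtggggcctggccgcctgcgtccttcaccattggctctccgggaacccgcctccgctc

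The promoter of Fos is shown for the other group. The letters TGACGT, the core of the element bound by CREB and ATF factors, were found on either strand in 6.47% of all promoters and in 6 of 20 compared immediate early genes with a promoter in the table, which were Atf3, Btg1, Btg2, Dusp1, Fos and Maff. Of these only Fos was among the genes called above in CONV, at 3000, 561 and 1259.8 adjusted CPM. Its TGACGT match stands in capitals, and GCGTG is left in lower case. The letters ACGT are shared by both cores. TGACGT was also found in 3 of the 17 genes of glycolysis and low oxygen with a promoter. Of called genes with a promoter it was found in 1 of 5 there, which was Ldha, and in 1 of 7 immediate early genes.
Fos, chr12:85473640-85473889, plus strand: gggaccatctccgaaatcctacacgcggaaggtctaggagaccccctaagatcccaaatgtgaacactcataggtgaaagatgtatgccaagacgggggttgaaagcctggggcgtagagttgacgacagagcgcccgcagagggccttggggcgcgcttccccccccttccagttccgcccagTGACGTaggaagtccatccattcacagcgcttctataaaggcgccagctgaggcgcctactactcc

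Genes of vessel growth and injury were uneven. Of 18 compared genes of tip cells and injury-activated endothelium, 5 were called above in CONV and 1 below, where 2.46% and 2.33% of all genes were, and 4 were called below in FLASH, where 0.826% were. Ntrk2, a neurotrophin receptor found in injury-activated capillary cells, stood at 377, 66.8 and 18.4 adjusted CPM and was above 0 in 39.4%, 15.2% and 5.96% of members. Lrg1, a secreted glycoprotein of vessel growth, stood at 504, 78.6 and 170.0, and Esm1, a tip cell proteoglycan, at 64.2, 9.17 and 1.15. Both were highest in CONV. Sox11, a transcription factor, went the other way, at 4.84, 104 and 95.3, and was above 0 in 1.77%, 23% and 23.4%. Apln, at 96.9, 86.5 and 65.5, and Aplnr, at 105, 86.5 and 26.4, the ligand and receptor of the apelin pathway, were not called in CONV, and Aplnr was called below both others in FLASH.

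Of 24 compared genes of basement membrane and matrix, 14 were highest in CONV, against 32.2% of all genes. In CONV 4 were called above and 1 below, against 2.46% and 2.33% of all genes, and in FLASH 4 were called below, against 0.826%. The gene below in CONV was Fn1, fibronectin, which was listed at 0 in all CONV members and stood at 76.0 in CONV AsiDNA and 14.9 in FLASH, where 4 members and 1 member had it above 0, so that its call in CONV rests on a single FLASH cell. Hspg2, the heparan sulfate proteoglycan perlecan, stood at 384, 122 and 27.6 adjusted CPM, and Vwa1, a perlecan partner, at 159, 52.4 and 10.3. Lamb1, a laminin chain, stood at 95.6, 47.2 and 8.04, and Col18a1, the precursor of endostatin, at 201, 161 and 35.6. In all 4 of these FLASH was the lowest. In members with Vwf, however, Vwa1 stood at 62.2, 7.06 and 9.19, with CONV AsiDNA lowest, and Hspg2 at 226, 35.3 and 25.7. In members with neither Vwf nor 3 lymphatic markers, Vwa1 stood at 245, 121 and 4.06 and Hspg2 at 531.5, 218 and 16.2. Lamb1 and Col18a1 had FLASH lowest in both of these groups. Without the lymphatic-marker members Col18a1 stood at 197, 47.2 and 20.7. On adjusted CPM plus 10 FLASH was then within 2-fold of CONV AsiDNA, and the FLASH call of Col18a1 was lost. The collagen IV chains Col4a1, at 1983, 1853 and 1393, and Col4a2, at 1398, 1181 and 892, kept that order with ratios under 2-fold. Mgp, matrix Gla protein, stood at 603, 250.3 and 180.3, and the fibulin Fbln2 at 206, 93.0 and 62.0. Both are also artery markers, of which 5 of 20 were called above in CONV, again against 2.46%. The integrin chains Itga1, at 817, 1334 and 1392, and Itgb1, at 821, 1170.1 and 1166, were lower in CONV than in the other libraries. Igfbp7, a secreted binding protein on the list of aerocyte markers, stood at 2904, 1173 and 602. Of 15 aerocyte markers compared, Car4 and Ednrb of the rule among them, 1 was called above in CONV and 2 below. These counts stand against 2.46% and 2.33% of all genes.

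**Figure D3:**
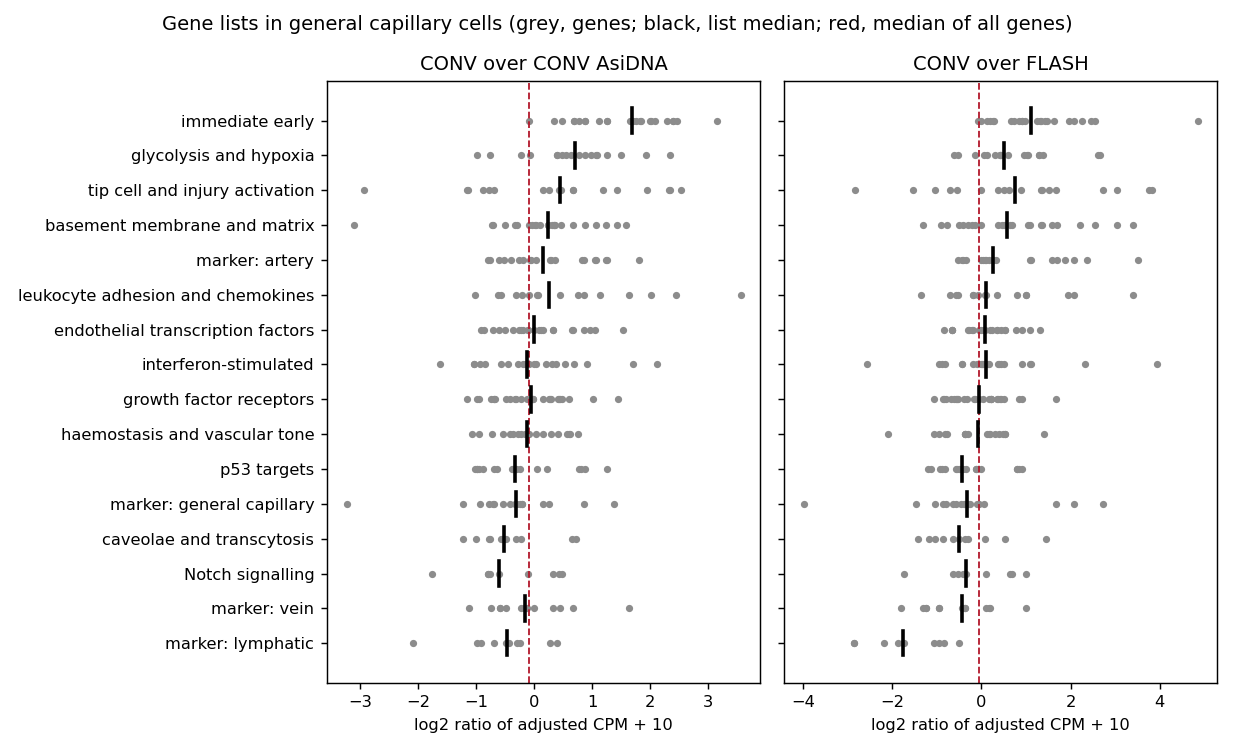
Log2 ratios of adjusted CPM plus 10 in general capillary cells for the genes of 16 lists, CONV over CONV AsiDNA (left) and CONV over FLASH (right), with grey points for genes, black bars for list medians and a red line for the median of all genes. Immediate early genes lie to the right of the red line with medians of 1.68 and 1.12, and lymphatic markers to its left with −0.46 and −1.75.

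Of 16 compared genes of leukocyte adhesion and chemokines, 4 were called above in CONV and 1 below, against 2.46% and 2.33% of all genes, and 2 of the 4 and the 1 below lost the call without 1 member. E-selectin, Sele, stood at 224, 32.8 and 50.5 adjusted CPM in 10.6%, 5.39% and 3.83% of members, and P-selectin, Selp, at 257, 76.0 and 123 in 14.6%, 5.88% and 7.23%. The cytokine Il6 stood at 108, 0 and 1.15 and was above 0 in 24, 0 and 1 members. These genes were thus held by a minority of the CONV members. Cxcl12, a chemokine that binds Cxcr4, stood at 2799, 1533 and 652 and was called below both others in FLASH, while Icam2, at 977, 1457 and 1416, was lowest in CONV. Cd74, the invariant chain of MHC class II, stood at 769 adjusted CPM in 26.1% (20.5 to 32.3%) of CONV members and was listed at 0 in every member of the other libraries. Other genes were also listed at 0 in all members of a library, among them mt-Nd2 and mt-Co3 in CONV AsiDNA and Gm42418 in FLASH, and the part of the adjustment made before deposit was not tested. Ciita, the regulator of MHC class II, stood at 72.6, 17.0 and 13.8. Of 23 interferon-stimulated genes, 2 were called above in CONV, against 2.46% of all genes, namely Rsad2 at 375, 78.6 and 14.9 and Iigp1 at 507, 149 and 93.0, 1 was called below there, against 2.33%, and Isg15, at 64.2, 142 and 121, was lowest in CONV, so the list did not move together.

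Lyve1 was called below in CONV. This hyaluronan receptor, known from lymphatic vessels and 1 of the 10 lymphatic markers, lies at chr7:110850607-110863239. It stood at 441, 1909 and 3262 adjusted CPM and was above 0 in 23.5% (18.1 to 29.5%), 77.0% (70.6 to 82.6%) and 90.2% (85.7 to 93.7%) of members. Without the lymphatic-marker members these shares were 21.2%, 75.7% and 90.1%, and thinned to 1000 adjusted counts they were 15.2%, 59.2% and 78.2%. Without members with 3 or more of the other 9 lymphatic markers they were 21.9%, 76.5% and 90.3%, so the difference in Lyve1 was as large without the cells that those markers single out. In aerocyte cells, with medians of 3928, 3940 and 3902 adjusted counts, the shares were 7.41%, 18.8% and 20.8%. Npr3, the clearance receptor of natriuretic peptides, stood at 89.6, 588 and 831 adjusted CPM in 15.9%, 68.1% and 72.3% of members, against 0%, 1.88% and 0.595% of aerocyte cells. Cyp4b1, a cytochrome P450 on the list of aerocyte markers, stood at 100.5, 539 and 622, and Grn, progranulin, at 29.1, 189 and 226. In all of these the CONV AsiDNA and FLASH levels were within 2-fold of each other.

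In each of the lists of caveolae, Notch, BMP and TGF-beta, and p53 genes, 1 gene was called below in CONV and 0 above, of 11, 9, 19 and 18 compared, where 2.33% of all genes were called below, so these counts are near the background. Of 11 genes of caveolae and transcytosis, the median log2 ratio was −0.53 against CONV AsiDNA and −0.50 against FLASH, with order intervals over the genes of −0.998 to 0.647 and −1.17 to 0.536, and with Ehd1 the 1 gene called below, at 165, 399.6 and 459 adjusted CPM. Plvap, at 1044, 1799 and 2159, and Cavin2, at 1119, 2245 and 2522, were not called. Of 9 Notch genes the median was −0.60 against CONV AsiDNA and −0.34 against FLASH, with intervals of −0.80 to 0.434 and −0.631 to 0.688, and the ligand Dll1 was called below at 71.4, 266 and 259.5, while Notch1, at 299, 527 and 469, was not called. The BMP ligand Bmp6 was called below at 82.3, 273 and 256, and Tmem100, a target of BMP9 signalling, stood at 1500, 2905 and 2874. Of 18 p53 targets the median was −0.33 against CONV AsiDNA and −0.43 against FLASH, with intervals of −0.874 to 0.223 and −0.812 to −0.0165. All these intervals took in the median of all genes. Cdkn1a, the cell cycle inhibitor p21, was above 0 in 89.4%, 81.9% and 94.5% of members at 1859.5, 1592 and 2373 adjusted CPM, highest in FLASH and lowest in CONV AsiDNA. Gdf15, a secreted p53 target, was called below in CONV at 168, 349.9 and 402, a call lost without 1 member and without the lymphatic-marker members, and Phlda3 stood at 281, 566 and 542. Of 8 compared cell cycle genes the cyclins Ccnd1, at 380.1, 925 and 933, and Ccnd2, at 151, 589.6 and 495, and the tubulin-binding Stmn1, at 69.0, 149 and 250.4, were called below in CONV, 3 of 8 where 2.33% of all genes were.

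Genes encoded by the mitochondrial genome, which serve oxidative phosphorylation, were low in CONV members. Of 12 compared, 7 were called below in CONV and 0 above, where 2.33% and 2.46% of all genes were, and 3 were called above in FLASH, where 0.31% were. The FLASH call of mt-Atp6 was lost without members with Vwf, at a log2 ratio of 0.60. mt-Co1, a subunit of cytochrome oxidase, stood at 29.1, 1208 and 1425 adjusted CPM, mt-Atp6, a subunit of ATP synthase, at 32.7, 1119 and 3071, and mt-Nd3, a subunit of complex I, at 3.63, 349 and 650.0. All the mt-Co1 of the CONV members was in 1 cell. mt-Nd4 stood at 306, 1842 and 1489.5. Over all cells of the libraries the median mitochondrial share was 0.628%, 0.180% and 1.35%, with CONV AsiDNA lowest. It was 0.174%, 0.339% and 0.512% in aerocyte cells and 0.128%, 0.160% and 1.22% in Vwf cells. The list did not scale as a block, since mt-Nd2 stood at 546 in CONV and 949 in FLASH and was listed at 0 in CONV AsiDNA, mt-Co2 was listed at 0 in CONV, and mt-Co3 was listed at 0 in both CONV and CONV AsiDNA. The adjustment made before deposit is not described in what was read here, and its part in these genes was not tested. Of all 6778 genes, 16, 13 and 24 were listed at 0 in every member of a library. Those with the highest summed adjusted counts in the other libraries were mt-Co2, S100a9, S100a8, mt-Co3 and Ngp for CONV, mt-Nd2, mt-Co3, Cd74, Ccl6 and H2-DMb1 for CONV AsiDNA, and Gm42418, AY036118, S100a9, S100a8 and Cd74 for FLASH. Apart from Cd74, H2-DMb1 and Ccl6, these named genes are mitochondrial, ribosomal RNA and granulocyte genes.

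Lipid handling, for which these cells are known, was mixed. Of 21 genes of the list 7 reached the minimum sum, of which 2 were called above and 2 below in CONV, against 2.46% and 2.33% of all genes, and 2 below in FLASH, against 0.826%. Gpihbp1, which the rule used, stood at 1747, 1568 and 1677 adjusted CPM. Lpl, lipoprotein lipase, was listed at 0 in every CONV member and stood at 83.9 in CONV AsiDNA and 148 in FLASH, in 5.39% and 17.0% of members. Pltp, the phospholipid transfer protein, stood at 868, 1998 and 2106 and was called below in CONV. Fabp4, a fatty acid binding protein, stood at 661, 248 and 90.7 in 11.9%, 4.90% and 8.51% of members, and the cholesterol exporter Abca1 at 197, 78.6 and 27.6. Both were called above in CONV. Of Fabp4, 1 CONV AsiDNA member held 156 adjusted counts, and without it that library stood at 43.4, below FLASH, so that the order of these libraries rests on that cell. The FLASH calls of Fabp4 and Abca1 were both lost without 1 member. Cd36, the fatty acid translocase, was near level at 1263, 1464 and 1558, though above 0 in 55.8%, 80.4% and 87.2% of members.

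Of 27 growth factor receptors and ligands, 0 were called in CONV in either direction, where 2.46% of all genes were called above and 2.33% below, so that a list of this length is near the background. The VEGF receptor Kdr stood at 758, 542 and 590.3 adjusted CPM, the angiopoietin receptor Tek at 416, 523 and 526 and the sphingosine phosphate receptor S1pr1 at 1714, 1785 and 1935. Of 23 transcription factors Sox17, at 494, 235 and 227, and Mef2c, at 429.8, 142 and 167, were called above in CONV, 2 of 23 where 2.46% of all genes were. Erg stood at 157, 123 and 122 and Foxf1, a factor of lung endothelium, at 694, 828 and 800.5. The junction genes Cdh5, at 1939.5, 2419 and 2334, and Pecam1, at 1803, 2247 and 1928, which the rule used, were within 2-fold in all libraries, while Emcn, endomucin, was called above in CONV at 1041, 324 and 287. Flow-induced Klf2 stood at 3185, 1859 and 3044, with 0 of 13 genes of its list called in CONV, again near the background. Of 19 general capillary markers compared, Gpihbp1, Pecam1 and Cdh5 of the rule among them, 1 was called above and 2 below in CONV. These counts stand against 2.46% and 2.33% of all genes. Of the 19, 4 were highest in CONV, as were 32.2% of all genes. The median log2 ratio of the 19 against CONV AsiDNA was −0.32, with an order interval of −0.70 to −0.21, below the −0.08 of all genes. It was not taken without the genes of the rule. Against FLASH it was −0.33, with an interval of −0.80 to −0.055 that took in the median of all genes.

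Of 14 compared heat shock genes, Hspa5, the chaperone of the endoplasmic reticulum, at 298, 697 and 686 adjusted CPM, and Hsph1, at 13.3, 72.1 and 74.6, were called below in CONV and 0 above, against 2.33% and 2.46% of all genes. Of 18 genes of haemostasis and vascular tone, the plasminogen activator Plau was the 1 gene called below in CONV, near that background, at 8.47, 28.8 and 28.7. Its call was lost without 1 member and without the lymphatic-marker members. Ptgis, prostacyclin synthase, was the 1 gene of the list called above in FLASH, against 0.31% of all genes, at 32.7, 72.1 and 173. Thrombomodulin, Thbd, stood at 1493, 2171 and 2570.2, and Ace, the angiotensin-converting enzyme, at 1593, 2051 and 2057, both lowest in CONV. Of 15 genes of senescence and secretion 4 were called above in CONV and 1 below, where 2.46% and 2.33% of all genes were, among them Igfbp3, a binding protein of insulin-like growth factors, which stood at 111 in CONV against 26.2 in CONV AsiDNA, while every FLASH member was at 0. Of 9 clock genes only Bhlhe40, a transcriptional repressor also induced by low oxygen, was called above in CONV at 385, 102 and 123. As 2.46% of all genes were called above, this count is near the background. Of 13 genes of MHC class I, 0 were called in any library, near the background too, with H2-K1 at 1816, 2397 and 2305.

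Few genes set CONV AsiDNA members apart. Cyp26b1, which degrades retinoic acid, stood at 52.1, 162 and 25.3 adjusted CPM, and Hmgcs1, an enzyme of cholesterol synthesis, at 13.3, 48.5 and 18.4. Genes below both others were 2410006H16Rik, a non-coding transcript, at 86.0, 2.62 and 49.4, Atf3, a stress-induced transcription factor, at 513, 89.1 and 254, Fau, a ribosomal protein gene, at 1121, 186 and 485, and Crip1, a LIM domain protein, at 577, 238 and 642. In the members with neither Vwf nor 3 lymphatic markers Atf3 stood at 516, 43.7 and 16.2, with FLASH lowest. Fos, at 3000, 561 and 1259.8, also belonged to them. Without the lymphatic-marker members Fos stood at 2831, 385 and 598, which is within 2-fold of FLASH, so that its place rested on those cells, and the call was also lost without members with Car4 or Ednrb.

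FLASH members were marked by Cyp1a1, a cytochrome P450 and known target of the aryl hydrocarbon receptor at chr9:57687928-57703824. It stood at 8.47, 11.8 and 168 adjusted CPM and was above 0 in 1.77% (0.484 to 4.47%), 2.94% (1.09 to 6.29%) and 24.3% (18.9 to 30.3%) of members. The aerocyte cells showed the same order at 19.9, 63.7 and 1021, with 5.56%, 6.88% and 60.1% above 0, and the Vwf cells 5.88%, 0% and 6.90%. Ifi27l2a, an interferon-induced gene, stood at 10.9, 32.8 and 114, and Gng2, a G protein subunit, at 15.7, 22.3 and 68.9. Fgl2, at 77.5, 56.3 and 287, belongs to the lymphatic markers, all 10 of which were highest in FLASH, where lymphatic-marker members were also most frequent. Without those cells 11 in place of 21 genes were called above in FLASH, and without members with Car4 or Ednrb 12. Genes below both others in FLASH were Scd2, a fatty acid desaturase, at 67.8, 73.4 and 1.15, Prnp, the prion protein, at 102, 70.8 and 5.74, Trim2, a ubiquitin ligase, at 86.0, 74.7 and 9.19, and Serpine2, a protease inhibitor, at 338, 70.8 and 11.5. The first 3 of these were within 2-fold between CONV and CONV AsiDNA. Among vein markers 9 of 14 compared genes were highest in FLASH, as were 33.3% of all genes, and the median log2 ratio of CONV AsiDNA over FLASH was −0.43. Without members with Vwf, which were most frequent in FLASH, that median was 0.10. Of these genes, Prss23 stood at 395, 875 and 1410.3 and Slc6a2, the noradrenaline transporter, at 303, 301 and 727.

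The members were not uniform within a library. Members with Vwf numbered 95, 114 and 147, or 42.0% (35.5 to 48.8%), 55.9% (48.8 to 62.8%) and 62.6% (56.0 to 68.8%). Slc6a2 was above 0 in 15.8%, 22.8% and 28.6% of them and in 1.53%, 3.33% and 1.14% of those without Vwf. S100a6 went the other way, in 20.0%, 0.877% and 3.40% of members with Vwf and 58.8%, 6.67% and 11.4% without. Ntrk2 was above 0 in 55.8%, 13.2% and 5.44% with Vwf and 27.5%, 17.8% and 6.82% without, a higher share with Vwf in CONV and a lower one in the other libraries. The distance of CONV from the other libraries was found on both sides. Sparcl1 was above 0 in 74.7%, 21.1% and 12.2% with Vwf and 88.5%, 25.6% and 13.6% without, and Lyve1 in 40.0%, 85.1% and 95.2% and 11.4%, 66.7% and 81.8%. Of the 167 genes called above in CONV, 99 reached the minimum sum on both sides, and of these 81 were called with Vwf, 70 without and 56 in both, while all 99 had CONV highest on both sides. Of the 158 called below, 99 reached the minimum sum on both sides, 46 were called in both and all 99 had CONV lowest on both. The genes were chosen by the same contrast over all members, so these counts are a description.

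**Figure D4:**
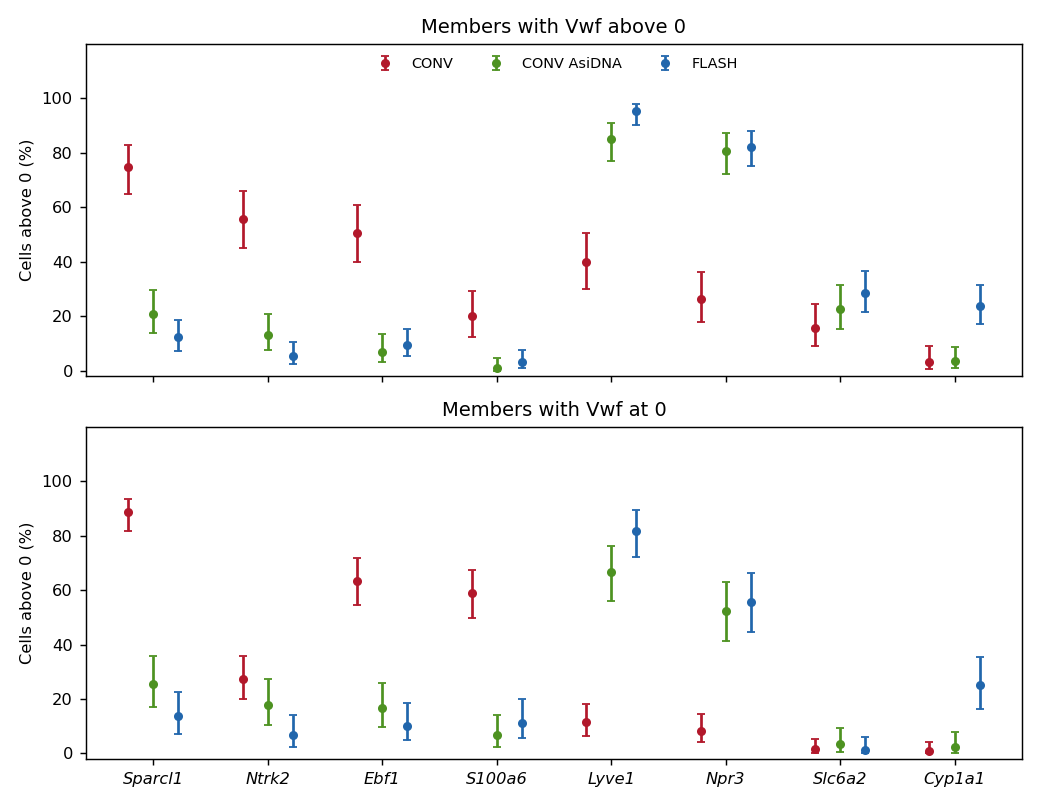
Share of general capillary cells above 0 (%) for 8 genes in each library, for members with Vwf above 0 (top) and at 0 (bottom), with exact 95% Clopper-Pearson intervals as bars. Sparcl1 in CONV lies at 74.7% and 88.5% in the panels, above the other libraries in both, and Slc6a2 is near 0 in the lower panel.

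Kit divided the members in another way. Members with Kit numbered 62, 98 and 98, and Fos was above 0 in 11.3%, 5.10% and 11.2% of them against 56.7%, 22.6% and 28.5% of members without Kit. S100a6 was above 0 in 6.45%, 1.02% and 0% against 56.1%, 5.66% and 10.9%. Members with Kit thus held lower shares of both genes in every library. They held Ntrk2 more often, in 67.7%, 20.4% and 7.14% against 28.7%, 10.4% and 5.11%, and Npr3 likewise, in 37.1%, 83.7% and 91.8% against 7.93%, 53.8% and 58.4%. Of the genes called above in CONV, 70 reached the minimum sum on both sides, 27 were called in both and 69 had CONV highest on both.

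Within CONV, the 187 members with Sparcl1 and the 39 without it differed in other genes. The 39 included all 9 lymphatic-marker members of CONV, of which 0 had Sparcl1 and 7 had Lyve1. Ebf1, a transcription factor, was above 0 in 65.2% (57.9 to 72.0%) of those with Sparcl1 and 23.1% (11.1 to 39.3%) of those without. Lyve1 was above 0 in 16.0% (11.1 to 22.1%) and 59.0% (42.1 to 74.4%). Hpgd, which inactivates prostaglandins, was above 0 in 39.0% (32.0 to 46.4%) and 71.8% (55.1 to 85.0%), and Npr3 in 12.8% (8.40 to 18.5%) and 30.8% (17.0 to 47.6%). The intervals of the 2 groups of cells did not overlap for Ebf1, Lyve1 and Hpgd. Cells of 1 mouse are not replicates, and no test is given.

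The same genes were looked up in the other endothelial classes of the same libraries. Of the genes called above in CONV members, 70 reached the minimum sum in aerocyte cells too, of which 26 were also called above in CONV aerocytes and 1 below, against 2.47% and 2.72% of the 4454 genes compared in both classes. In Vwf cells, the endothelial-gated cells with Vwf but without Gpihbp1, 92 reached the minimum, of which 32 were also called above and 2 below, against 2.36% and 4.95% of 2668 genes. Of the genes called below in CONV members, 21 of 97 were also below in CONV aerocytes and 42 of 72 in CONV Vwf cells, and 0 were called above in either. The classes of a library share its mouse and its processing, whose part in this overlap was not tested. Bnip3 was above 0 in 63.0%, 3.75% and 7.14% of aerocyte cells, and Ntrk2 in 48.1%, 5.00% and 2.98%, in both cases highest in CONV. S100a6, listed at 0 in every aerocyte cell, was above 0 in 32.4%, 12.7% and 29.3% of Vwf cells.

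With the library as the replicate, the members were compared with the aerocyte cells of the same 3 mice by limma with the library as a block and Benjamini-Hochberg adjustment. Of 7977 genes, 1208 (15.1%) were higher in general capillary cells and 759 (9.51%) lower at an adjusted p under 0.05. Both classes were cut from the same cells by a few genes, so differences in genes that vary with those of the rule follow from the choice, and the p-values say only that a difference was even over the 3 libraries. Plvap stood at 1044, 1799 and 2159 adjusted CPM in members and 0, 13.1 and 24.1 in aerocytes, a log2 difference of 6.33 (SE 0.19, adjusted p = 1.47e-06) by limma. Itga6, an integrin chain, stood at 597, 751 and 739.6 against 14.9, 8.17 and 11.2, a difference of 5.04 (SE 0.20, adjusted p = 4.70e-06) by limma. Fos stood at 3000, 561 and 1260 in members and was listed at 0 in the aerocytes of 2 libraries, and Ptprb was higher in all 3 libraries as well. So were Prss23, at 0, 14.7 and 17.7 in aerocytes, Slc6a2, at 0, 13.1 and 0, and Tmsb4x, a ubiquitous actin-binding peptide, at 2004, 1833 and 2303 against 473, 21.2 and 0. Whether zeros over a whole class were set by the adjustment made before deposit was not tested. Ccl21a and Mmrn1 were among the 10 genes farthest above but no longer reached the minimum sum without the lymphatic-marker members. Vwf, which was not used by either gate, was higher at a log2 difference of 6.19 (SE 0.35, adjusted p = 1.26e-05) by limma. Leaving out the CONV AsiDNA library gave 716 higher and 444 lower genes, and leaving out FLASH 639 and 386.

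Genes lower in members than in aerocytes were led by Fibin, a secreted factor, at 3.63, 7.86 and 17.2 against 588, 1691 and 2027 adjusted CPM, a log2 difference of −6.08 (SE 0.23, adjusted p = 3.49e-06) by limma. Emp2, a tetraspan membrane protein, stood at 148, 79.9 and 134 against 3311, 6480 and 6817, and Tbx2, a T-box factor, at 35.1, 7.86 and 18.4 against 792, 848 and 882. Of 16 aerocyte markers outside the rule, 14 were lower in members and 1 higher. Of 16 general capillary markers outside it, 13 were higher and 2 lower, and Scn7a, a sodium channel gene, was lower at a log2 difference of −2.04 (SE 0.14, adjusted p = 3.06e-05) by limma. All 14 vein markers and 19 of 20 artery markers tested were higher. Immediate early genes were higher in 17 of 25 and lower in 0, and basement membrane and matrix genes higher in 14 of 24 and lower in 1. Of all genes tested against aerocytes, 15.1% were higher and 9.51% lower. The receptor Kdr was lower at a log2 difference of −2.35 (SE 0.20, adjusted p = 6.79e-05) and its partner Nrp1 at −1.94 (SE 0.16, adjusted p = 6.07e-05), while Tek was higher at 4.13 (SE 0.30, adjusted p = 3.67e-05), all by limma.

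**Figure D5:**
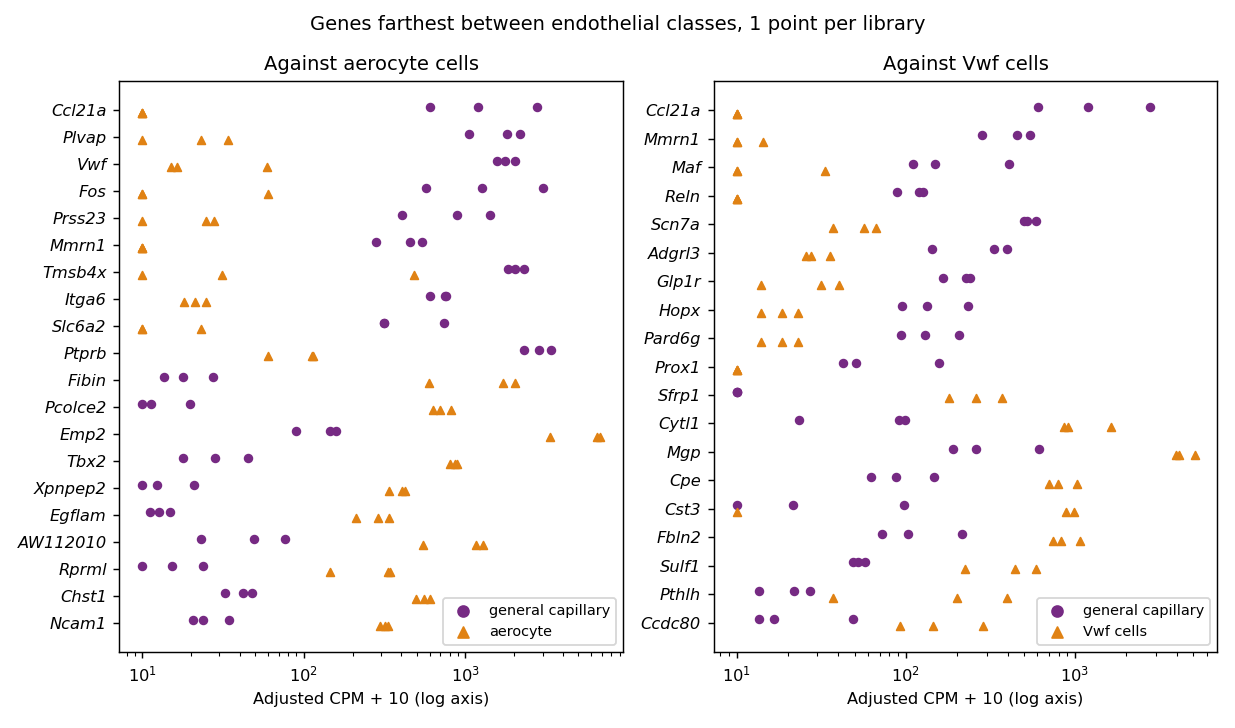
Adjusted CPM plus 10 (log axis) of genes among the 10 each with the highest and lowest log2 differences in general capillary cells against aerocyte cells (left) and against Vwf cells (right), with 3 points per class, 1 for each library. The classes do not overlap for Plvap (1044 to 2159 against 0 to 24.1 adjusted CPM), and they do for Cst3, which was listed at 0 in both classes of CONV AsiDNA.

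Against the Vwf cells the members differed in fewer genes. Of 7459 genes, 405 (5.43%) were higher in general capillary cells and 349 (4.68%) lower by limma, a split that became 246 and 447 when libraries were scaled by the median gene ratio. Without the library as a block 45 were higher and 64 lower, and leaving out a library gave 728 higher without CONV, 98 higher and 86 lower without CONV AsiDNA, and 175 and 181 without FLASH. Scn7a was higher at 490.3, 579 and 509.9 against 27.4, 56.6 and 47.0 adjusted CPM, a log2 difference of 3.36 (SE 0.19, adjusted p = 4.24e-07) by limma. Adgrl3, an adhesion receptor, stood at 133, 324 and 386 against 15.6, 17.4 and 25.6, and Glp1r, the receptor of glucagon-like peptide 1, at 156, 231 and 218 against 3.91, 30.5 and 21.4. Kit was higher at a log2 difference of 2.59 (SE 0.20, adjusted p = 7.94e-06) and Sparcl1 at 2.24 (SE 0.23, adjusted p = 5.77e-05), both by limma. Ccl21a, Mmrn1, Maf, Reln and Prox1, also among the 10 farthest above, no longer reached the minimum sum without the lymphatic-marker members. Of 16 general capillary markers outside the rule, 10 were higher and 1 lower. Of 13 aerocyte markers tested, 11 were higher in members and 0 lower.

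Among genes lower in members than in Vwf cells, Sfrp1, a secreted Wnt inhibitor, was listed at 0 in every member and stood at 250.1, 169.9 and 359 in Vwf cells. Mgp stood at 603, 250.3 and 180.3 against 4130, 3925 and 5078 adjusted CPM, a log2 difference of −3.81 (SE 0.27, adjusted p = 3.69e-06) by limma, and Cpe, carboxypeptidase E, at 52.1, 77.3 and 138 against 696, 784 and 1012, a difference of −3.16 (SE 0.18, adjusted p = 4.24e-07) by limma. Cytl1, Fbln2, Sulf1, Pthlh and Ccdc80 were lower in all 3 libraries. Of the lists, vein markers were lower in 11 of 14 and higher in 0, artery markers were lower in 9 of 20 and higher in 2, immediate early genes lower in 9 of 25 and higher in 1, and genes of leukocyte adhesion lower in 8 of 18 and higher in 1, with Selp at a log2 difference of −2.52 (SE 0.17, adjusted p = 1.83e-06) by limma. Tip cell and injury genes were higher in 7 of 18 and lower in 2. Of all genes tested against Vwf cells, 4.68% were lower and 5.43% higher, a split that depended on the scaling. The elastic fibre genes Eln and Fbln5 were lower at log2 differences of −2.14 (SE 0.17, adjusted p = 7.45e-06) and −2.31 (SE 0.19, adjusted p = 8.44e-06), while the collagen IV chain Col4a1 was higher at 1.18 (SE 0.16, adjusted p = 4.40e-04), all by limma.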

How the data were processed

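Lungs were digested and single cells captured with the 10x Genomics 3′ chemistry. The submitters' processing notes name Cell Ranger 6.0.0 and the mm10 genome build without giving their roles. The authors deposited natural log values, ln(1 + a whole number) to within 1e-06, for 22954 genes in each of 3 libraries with 6372, 6983 and 6267 cells and 23908890, 26417388 and 23383510 adjusted counts in all. The narrow range of totals per cell and genes at 0 over whole classes show values adjusted before deposit, by steps that no source read here describes. A count model was therefore not used. Another 12 columns of per-sample values, in 4 tables, matched no sample label and were not used.

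Values were summed per class with Python 3.11.15, numpy 2.4.6, scipy 1.17.1, pandas 2.3.3 and matplotlib 3.10.9. Log2 ratios were taken on adjusted CPM + 10 for genes with a sum of 50 or more over the members, and a gene 2-fold or more above or below both other libraries was called. With 1 mouse per condition no test between conditions was run. Classes were compared over the 3 libraries with limma 3.58.1 in R 4.3.3, with trend, the library as a block since classes share a mouse, and Benjamini-Hochberg adjustment at 0.05, leaving out the genes of the gates. On simulated data, 94% of 4-fold and 17.5% of 2-fold changes were recovered between libraries, 100% and 26% against aerocytes, and 96.5% and 39% against Vwf cells. Of the unchanged genes, 2 were called at 4-fold and 0 at 2-fold between libraries, 5 and 0 against aerocytes, and 14 and 4 against Vwf cells, and with 8-fold changes 0, 28 and 10. The simulated sums were Poisson draws around the pooled level of each gene, with noise of a set size not measured in these data. The uneven spread of a gene over cells was not simulated. The simulation therefore does not give the rate of false calls between these mice. Named genes were the called genes ranked by the smaller of their ratios to the other libraries, above 0 in all 3 and in 10% or more of the members of 1, up to 10 each way for CONV and 5 for CONV AsiDNA and FLASH, the 10 farthest each way in limma, and members of the gene lists. Other genes named for the member splits and in the lists were chosen after their values were seen, and some genes that met the rule are not reported here. No doublet caller was run, and cells with Ptprc, Epcam or Col1a1 were outside the gate. The members and lists were chosen with earlier results of these data known. Gene positions are from GENCODE on GRCm38 and promoters from RefSeq on GRCm38.p6. Thinned shares are the expected share of members with the gene after drawing 1000 adjusted counts from each cell. Exclusion rules, the prior, the minimum sum, the scaling, the block and each library were varied, and totals without mitochondrial and ribosomal genes, Gm42418 and AY036118, lymphatic markers without Lyve1, and leaving out members with Vwf or with lymphatic markers, or the 1 member of a library with the most of a gene, were added after seeing the data.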

Additional observations from a re-analysis of the deposited data

Results flagged for a closer look

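Some genes were called one way in members and the other way in another class, among genes with the minimum sum in both. Of those called above in CONV members, 2 of 92 were called below in CONV Vwf cells and 1 of 70 in CONV aerocytes. These counts were not above the background of 4.95% and 2.72% of all genes compared. Of those called below in FLASH members, 2 of 19 were called above in FLASH Vwf cells, against 0.75%. The 2 genes with opposite calls that belong to the gene lists, Acta2 and Dkk2, are described, and neither difference was tested. Acta2, a smooth muscle actin, stood at 70.2, 9.17 and 16.1 adjusted CPM in the general capillary cells of CONV, CONV AsiDNA and FLASH, so that CONV was above both others with a smaller log2 ratio of 1.62. In Vwf cells it was listed at 0 in CONV and stood at 144 and 115 in the other libraries. Acta2 was above 0 in 4, 1 and 1 members. In CONV 1 member held 35 of its adjusted counts, and without it CONV stood at 28.0 and the call was lost. Dkk2, a secreted regulator of Wnt signalling and an artery marker, stood at 117, 26.2 and 1.15 in general capillary cells, where FLASH was below both others with a smaller log2 ratio of −1.7, and at 74.2, 69.7 and 167 in Vwf cells, where FLASH was above both.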

How the results depend on the processing

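With Gpihbp1 of 2 or more, members made up 50.5%, 34.4% and 40.9% of endothelial-gated cells and 2.97%, 2.23% and 3.16% of all cells, and CONV AsiDNA was below both others in 38 genes. Without members with Car4 or Ednrb the shares were 43.1%, 33.9% and 28.9%, and 2.53%, 2.21% and 2.23% of all cells. FLASH was then above both in 12 genes, and the median of lymphatic markers was −0.81 for CONV over FLASH and −0.16 for CONV AsiDNA over FLASH. Without lymphatic-marker members the FLASH share was 44.0% of endothelial-gated cells, and 11 genes were above both in FLASH.

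With a prior of 1, 287 genes lay below both in CONV, 17 above and 45 below in CONV AsiDNA, and 37 above and 107 below in FLASH. With a prior of 50, CONV had 83 above and 48 below, CONV AsiDNA 5 below, and FLASH 10 above and 12 below. A minimum sum of 20 gave 30 above and 32 below in CONV AsiDNA and 35 and 85 in FLASH. A minimum sum of 200 gave 85 and 76 in CONV, 3 and 8 in CONV AsiDNA, and 8 and 21 in FLASH. CONV had more genes than either other library under each of these. With totals that leave out mitochondrial and ribosomal genes the median log2 ratios over all genes were −0.04, 0.01 and 0.03 for CONV over CONV AsiDNA, CONV over FLASH and CONV AsiDNA over FLASH.

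Without members with Vwf, CONV AsiDNA was above both in 18 and below in 35 genes and FLASH above in 38. The vein marker median of CONV AsiDNA over FLASH turned to 0.10 there, Vwf being itself 1 of these markers, and was −0.77 with Gpihbp1 of 2 or more. The medians of that ratio moved to 0.44 for leukocyte adhesion, 0.25 for general capillary markers, 0.24 for growth factor receptors and 0.10 for haemostasis. The calls of Fos in CONV AsiDNA (log2 −0.62 without lymphatic-marker members), Col18a1 in FLASH (−0.90 there), Fgl2 (0.66 without members with Car4 or Ednrb) and mt-Atp6 in FLASH (0.60 without members with Vwf) were lost, and Hmgcs1, Ifi27l2a, Gng2, Serpine2 and 2410006H16Rik at a prior of 50. Where no cause is given, the cause was not tested.

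Against aerocytes, leaving out a library gave 639 to 1569 higher and 386 to 910 lower genes, and a minimum sum of 200 left 742 higher. Against Vwf cells, leaving out a library gave 98 to 728 higher and 86 to 495 lower. A prior of 1 gave 251 higher there and median gene ratio scaling 246. Without the replicate block 925 genes were higher and 596 lower against aerocytes, and 45 and 64 against Vwf cells, where Cst3 and Pthlh lost their calls. The number of cells limits low genes, sequencing depth is unknown, and 1 mouse per condition limits all comparisons of conditions.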
